A study of Mus musculus with 93 samples.

Results

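The comparison set 24 GFP+ wells of mouse cardiac spheroids against each other, the 12 highest and the 12 lowest in Dppa5a, a gene expressed in pluripotent cells. The wells were chosen by this measured value. All 37 usable GFP+ spheroid wells, of 93 libraries in the series, were ranked by Dppa5a CPM (a gene's read count per 1e+06 counted reads of the library), and every other gene was then compared between both ends of the ranking. The high and low wells are therefore ranges of a readout and not treatments, and the Dppa5a levels are given as a description with no test. The question was whether the genes of the pluripotent state rose together with Dppa5a or whether Dppa5a varied alone.

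The spheroids were grown from a mouse embryonic stem cell (ESC) line derived from mice that carried Hcn4-GFP, Tbx1-Cre and Ai9, and all wells of both ranges share these alleles. Hcn4-GFP reports expression of the pacemaker channel gene Hcn4, which marks the first heart field, and Ai9 gives a lasting red label (RFP) to cells with a history of Tbx1, a gene of the second heart field. Spheroids were induced with Activin A, Bmp4 and Wnt proteins, alone or in combination, and the labels do not tie a well to a mixture. GFP+ cells were sorted at day 5.5, with 10 cells in each well and 1 library from each well. A further 46 wells held RFP+ spheroid cells, and 9 libraries came from embryos, whose age is embryonic day 8.5 in the sample titles and an earlier day in the protocol. The labels name neither the spheroid nor the differentiation behind a well, so n counts wells, and p-values measure the spread between wells, which may in part be technical. A well is a pool, so fewer cells of a type and less RNA per cell cannot be told apart.

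Pluripotent cells are held undifferentiated by a small network of transcription factors, with Pou5f1 (Oct4), Sox2 and Nanog at its core and factors such as Zfp42 (Rex1), Esrrb, Nr0b1 and Klf4 added in the naive state. Dppa5a encodes a KH-domain RNA-binding protein that is abundant in embryonic stem cells and in the early embryo and is lost as cells form the germ layers. Pou5f1 and Sox2 are shared by naive and later pluripotent cells, and Sox2 is also used by neural cells.

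The region upstream of the transcription start is shown for 4 of the genes that separated the wells, because these 4 include the gene most like Dppa5a (Ooep), the Nodal coreceptor gene Tdgf1 and the pluripotency factors Zfp42 and Nanog. The sequences are the 250 bases before the start in RefSeq for GRCm38.p6, read 5′ to 3′ on the strand of the gene. Capitals mark TTTGCAT, a core of the site read by POU factors, and CATTGT, a core of the site read by Sox factors, on either strand.
Ooep (chr9:78378589-78378838, minus strand): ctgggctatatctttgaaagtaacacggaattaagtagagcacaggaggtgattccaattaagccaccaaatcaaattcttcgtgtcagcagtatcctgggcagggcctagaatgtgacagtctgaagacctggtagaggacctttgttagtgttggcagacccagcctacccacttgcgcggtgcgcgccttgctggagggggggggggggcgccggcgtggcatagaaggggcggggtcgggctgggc
Tdgf1 (chr9:110946159-110946408, minus strand): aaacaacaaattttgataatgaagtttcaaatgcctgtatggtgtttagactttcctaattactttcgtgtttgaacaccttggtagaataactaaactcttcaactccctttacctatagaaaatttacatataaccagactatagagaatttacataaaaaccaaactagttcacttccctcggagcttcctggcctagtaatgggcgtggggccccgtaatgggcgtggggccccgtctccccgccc
Zfp42 (chr8:43307010-43307259, minus strand): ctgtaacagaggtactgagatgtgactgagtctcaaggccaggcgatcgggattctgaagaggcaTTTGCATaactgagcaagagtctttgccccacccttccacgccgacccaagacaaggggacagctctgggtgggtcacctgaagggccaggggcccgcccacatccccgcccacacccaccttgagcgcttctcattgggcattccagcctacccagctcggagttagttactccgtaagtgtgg
Nanog (chr6:122707239-122707488, plus strand): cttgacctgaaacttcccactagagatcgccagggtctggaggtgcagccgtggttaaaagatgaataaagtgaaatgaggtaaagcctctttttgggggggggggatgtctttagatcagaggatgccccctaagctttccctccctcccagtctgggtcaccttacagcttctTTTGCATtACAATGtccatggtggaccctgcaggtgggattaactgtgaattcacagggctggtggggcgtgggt
In the Nanog sequence the POU core began 75 bases before this start and the Sox core 67 bases before it, separated by a single base. RefSeq lists another Nanog start, from which the same cores lay 151 and 143 bases away. In the Zfp42 sequence the POU core began 185 bases before the start. The Ooep and Tdgf1 windows held neither run of letters. Of the 25 genes called below, 19 had an entry in the RefSeq table, and 3 of these (Nanog, Zfp42 and Spp1) held the POU core in at least 1 of their windows. Over all entries this held for 4.65% of 27025 genes, and for 4.12% of 32851 windows. The Sox core was present for 2 of the 19 (Nanog and Platr14), for 12.2% of all genes and in 10.7% of all windows. A match of letters describes the sequence and is not a mapped binding site.

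Dppa5a spanned 2.62 to 1183 CPM over the 37 wells, with a median of 39.8 CPM. The 12 high wells had 318 to 1183 CPM (median 528 CPM), from 263 to 2954 reads, and well A9 was the highest. The 12 low wells had 2.62 to 20.4 CPM (median 14.5 CPM), from 3 to 54 reads, and well C8 was the lowest. The levels did not fall evenly along the ranking. With the lowest well, C8, left out of the search, the widest step lay between well B10 at 171 CPM and well A10 at 59.9 CPM. This was a 2.86-fold drop in the middle of the ranking, with 17 wells above and 20 below, and is the widest step named below. The drop from well G8 at 10.1 CPM to well C8 at 2.62 CPM was larger in fold but set only C8 apart. The edges of the ranges were arbitrary by comparison. The last high well, H9, had 318 CPM and the first well outside, C11, had 301.3 CPM, whereas the last middle well, F10, had 21.1 CPM and the first low well, E8, had 20.4 CPM. Outside these wells the gene was rare. The median over the 46 RFP+ wells was 0 CPM with a maximum of 347 CPM, the 5 GFP+ embryo libraries had no Dppa5a read, and the 4 RFP+ embryo libraries had at most 0.73 CPM.

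Depth overlapped between the ranges. High wells had 828193 to 4371849 counted reads (median 1456583.5) and 13159 to 14645 detected genes, and low wells had 1143517 to 3604850 reads (median 1941429.5) and 13345 to 14651 detected genes. A count of 3 reads corresponds to at most 3.62 CPM in these wells. Well C9 held only 6288 reads, 2 of them from Dppa5a, and was left out; its 318 CPM would have placed it at rank 12 of 38. Position on the plate did move with the ranking. Rows A to D held 9 of the 12 high wells and 3 of the 12 low wells, and rows E to H held 3 high and 9 low wells. The part of plate row in the results was not tested beyond a fit with row as a covariate, whose values are given for the named genes that lost or missed a call. Rows A and B held 3 and 2 high wells and 0 low wells, and row F held 0 high and 2 low wells. In that fit the contrast therefore rested on the wells of the other rows. Whether a call was lost to row or to fewer informative wells was not tested.

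**Figure D1:**
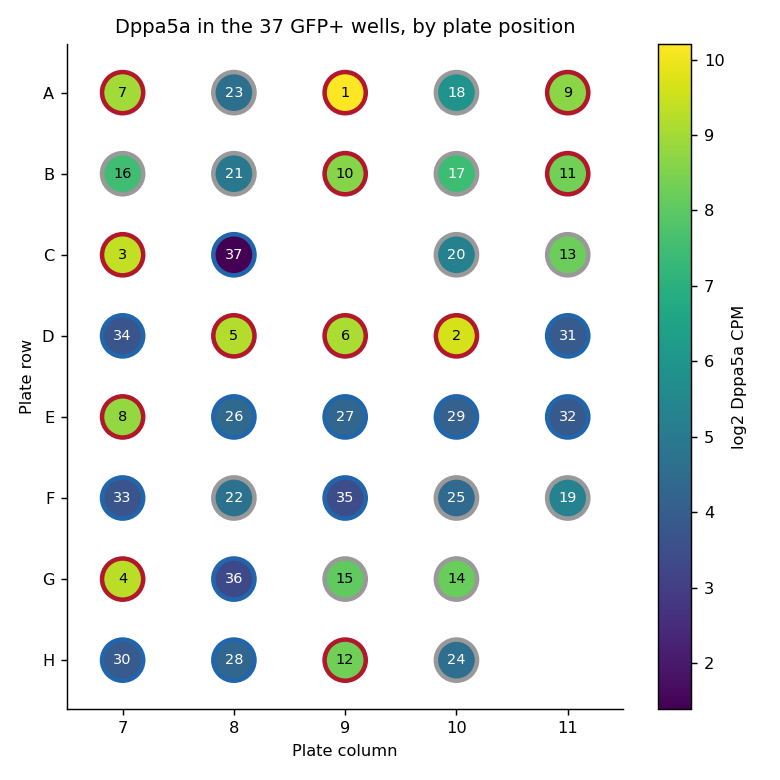
Position of the 37 GFP+ wells on the plate, with plate row on the y axis and plate column on the x axis. The fill gives the log2 Dppa5a CPM, the number in each circle is the rank, and red, grey and blue rims mark the 12 highest, the 13 middle and the 12 lowest wells. Rows A to D hold 9 high wells and 3 low wells.

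Across the other genes, 25 of 9857 genes tested differed between high and low wells at an adjusted p under 0.1 (edgeR quasi-likelihood test, Benjamini-Hochberg), which is 0.254% of the genes. All 25 were higher in the high-Dppa5a wells. No gene was called lower (0%), while 230 genes were lower and 319 higher at an unadjusted p under 0.05, and DESeq2 called 6 genes lower and 49 higher. The median log2 fold change over all genes tested was -0.01, against a median size of 1.44 among the 25. Of the 25, 18 differed by more than 2-fold. Genes of the pluripotency lists made up 9 of the 25. A total of 31 of the 44 listed pluripotency genes passed the filter on low counts, and 9 of these 31 were called higher (29.0%, against 0.254% of all genes) and 0 lower. At an unadjusted p under 0.05, 15 of the 31 were higher and 0 lower, and DESeq2 called 10 higher and 0 lower. The median log2 fold change of the 31 was 0.38. The other 22 of the 31 tested, with Pou5f1 and Sox2 among them, did not pass the test. A single range is enough to pass the filter, and Tdgf1 passed through the high wells alone, with at most 4.72 CPM in low wells. The share of 29.0% is therefore partly set by the filter and is a description. Without the filter, 14 of the 44 were called higher, against 0.345% of all genes. The lists were chosen with earlier results of these data known. With plate row as a covariate, 9 genes were called higher in all, of which 6 were pluripotency genes. Among these 6 was Fbxo15 (log2 fold change 4.30, edgeR adjusted p = 0.0154). It was not called without the covariate (1.85 ± 0.73, SE, edgeR adjusted p = 0.727). Fbxo15 had no read in 7 low wells but 51.1 CPM in low well F7.

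**Figure D2:**
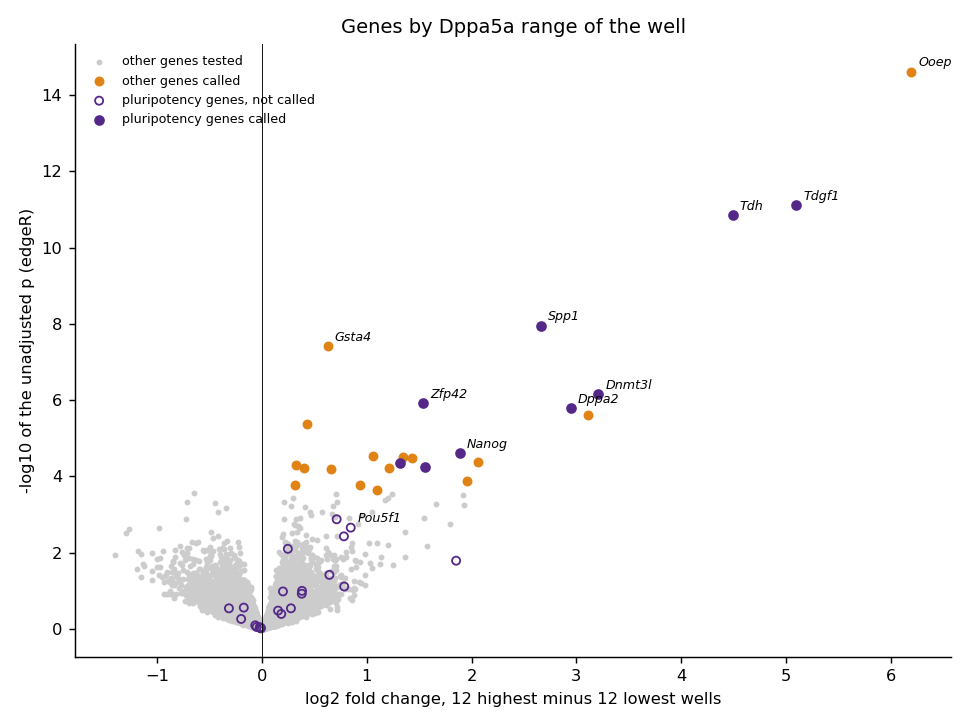
Each point is 1 of the 9857 genes tested, with the log2 fold change between the 12 high and the 12 low wells on the x axis and -log10 of the unadjusted edgeR p on the y axis. Filled purple points are the 9 called pluripotency genes, open purple points the 22 that were not called, and orange points the other 16 called genes. All called genes lie to the right of 0.

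The gene with the strongest difference was Ooep, which encodes a KH-domain protein of the maternal complex of the oocyte. High wells had 19.9 to 103.5 CPM of Ooep (median 50.3 CPM), whereas low wells had 0 to 3.05 CPM (median 0 CPM), with 9 of the 12 low wells without a read. The ranges did not overlap, and the log2 fold change was 6.19 ± 0.47 (SE, 12 wells against 12, edgeR adjusted p = 2.41e-11). Like Tdgf1, Ooep passed the filter on low counts through the high wells alone. Ooep was also the gene whose level followed Dppa5a most closely over all 37 wells (Spearman rank correlation 0.90, a description over wells that include those used for the ranking).

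Ooep lies beside Dppa5a on chromosome 9 (GRCm38), where Dppa5a occupies 78367052 to 78368199 and Ooep 78376903 to 78378588. Gsta4, a glutathione S-transferase gene, lies at 78191966 to 78209349, 175 kb before Dppa5a in coordinate order, and was also called. High wells had 252 to 371 CPM of Gsta4 (median 284 CPM) and low wells 138 to 244 CPM (median 191 CPM), with no overlap and a log2 fold change of 0.63 ± 0.09 (SE, edgeR adjusted p = 7.60e-05). Of the 18 other genes of the count table that start within 650 kb of it, 16 were tested without the low-count filter and these 2 were called, against 0.383% of all genes in that fit. Eef1a1, the translation elongation factor gene between Mto1 and Slc17a5, had a mean of 6903 CPM in high wells and 7085 CPM in low wells. The table names Dppa5a but not its nearby pseudogenes Dppa5b and Dppa5c, so reads shared among these copies could have been split or lost.

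Tdgf1 (Cripto), the coreceptor for the signalling protein Nodal, was the pluripotency gene with the largest log2 fold change among those tested. High wells had 7.78 to 88.3 CPM (median 33.8 CPM) and low wells 0 to 4.72 CPM (median 0 CPM), with 7 low wells at 0. The ranges did not overlap, and the log2 fold change was 5.10 ± 0.51 (SE, edgeR adjusted p = 3.84e-08). The lowest of the high wells was C7, the well of rank 3 in Dppa5a. Tdgf1 was also present in embryo libraries, which had little or no Dppa5a. It reached 503 CPM in the 5 GFP+ embryo libraries (median 0 CPM, 3 without a read). In the 4 RFP+ embryo libraries it reached 74.4 CPM (median 17.4 CPM, 2 without a read).

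A metabolic enzyme and a secreted protein of ESCs were also separated between the ranges. Tdh, which encodes the threonine dehydrogenase that mouse ESCs use to break down threonine, had 22.05 to 169 CPM in high wells (median 68.4 CPM) and 0 to 21.2 CPM in low wells (median 1.51 CPM). Its log2 fold change was 4.49 ± 0.46 (SE, edgeR adjusted p = 4.69e-08), and the ranges were separated only by the gap between well D8 at 22.05 CPM and well E11 at 21.2 CPM. Spp1, which encodes the secreted protein osteopontin, had 43.04 to 157 CPM in high wells (median 83.5 CPM) and 0 to 39.8 CPM in low wells (median 9.18 CPM). Its log2 fold change was 2.66 ± 0.36 (SE, edgeR adjusted p = 2.74e-05), again without overlap.

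Dnmt3l, the cofactor without catalytic activity of the de novo DNA methyltransferases, had 13.7 to 66.9 CPM in high wells (median 37.1 CPM) and 0 to 12.7 CPM in low wells (median 0.88 CPM). The ranges did not overlap and the log2 fold change was 3.21 ± 0.53 (SE, edgeR adjusted p = 0.00113). It was the only one of 8 tested genes of the DNA methylation list that was called. Dppa2, which encodes a chromatin protein of pluripotent cells, had 2.41 to 28.9 CPM in high wells (median 14.1 CPM) and 0 to 7.49 CPM in low wells (median 0.90 CPM). Its log2 fold change was 2.94 ± 0.51 (SE, edgeR adjusted p = 0.00201), with well H9 of the high range inside the low range. Its partner Dppa4 had a log2 fold change of 0.19 ± 0.22 (SE) and was not called.

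Zfp42 and Nanog, transcription factor genes of undifferentiated cells, were called with ranges that overlapped. Zfp42 had 29.8 to 108 CPM in high wells (median 44.02 CPM) and 6.13 to 34.1 CPM in low wells (median 20.7 CPM), a log2 fold change of 1.54 ± 0.26 (SE, edgeR adjusted p = 0.00170). No GFP+ well of the 37 lacked Zfp42 reads. Nanog had 8.63 to 169 CPM in high wells (median 50.5 CPM) and 0 to 29.98 CPM in low wells (median 13.6 CPM), a log2 fold change of 1.89 ± 0.39 (SE, edgeR adjusted p = 0.0217). The wells highest in Dppa5a, A9 and D10, were also highest in Nanog among all 37 with 169 and 128 CPM, whereas well A7, the well of rank 7 in Dppa5a, had 8.63 CPM. With plate row as a covariate neither gene was called, although the log2 fold changes stayed at 1.55 for Zfp42 (edgeR adjusted p = 0.141) and 2.00 for Nanog (edgeR adjusted p = 0.411).

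The remaining called pluripotency genes were L1td1, which encodes an RNA-binding protein derived from a LINE-1 element, and Mybl2 (B-Myb), a transcription factor of dividing cells. L1td1 had 17.3 to 51.2 CPM in high wells (median 35.6 CPM) and 3.85 to 28.9 CPM in low wells (median 11.6 CPM), a log2 fold change of 1.32 ± 0.28 (SE, edgeR adjusted p = 0.0274). Mybl2 had 7.84 to 54.1 CPM in high wells (median 27.8 CPM) and 2.39 to 22.6 CPM in low wells (median 7.84 CPM), a log2 fold change of 1.55 ± 0.34 (SE, edgeR adjusted p = 0.0298). Mybl2 was not limited to GFP+ wells. All 46 RFP+ spheroid wells had reads of it (median 18.2 CPM, against 11.9 CPM over the 37 GFP+ wells). The 4 RFP+ embryo libraries had 13.6 to 33.6 CPM, and 2 of the 5 GFP+ embryo libraries had none. With plate row as a covariate the log2 fold changes were 1.26 for L1td1 (edgeR adjusted p = 0.566) and 1.35 for Mybl2 (edgeR adjusted p = 0.882), neither of them called. In that fit 7 of the 25 genes were called: Ooep, Tdgf1, Tdh, Spp1, Gsta4, Dnmt3l and Dppa2.

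**Figure D3:**
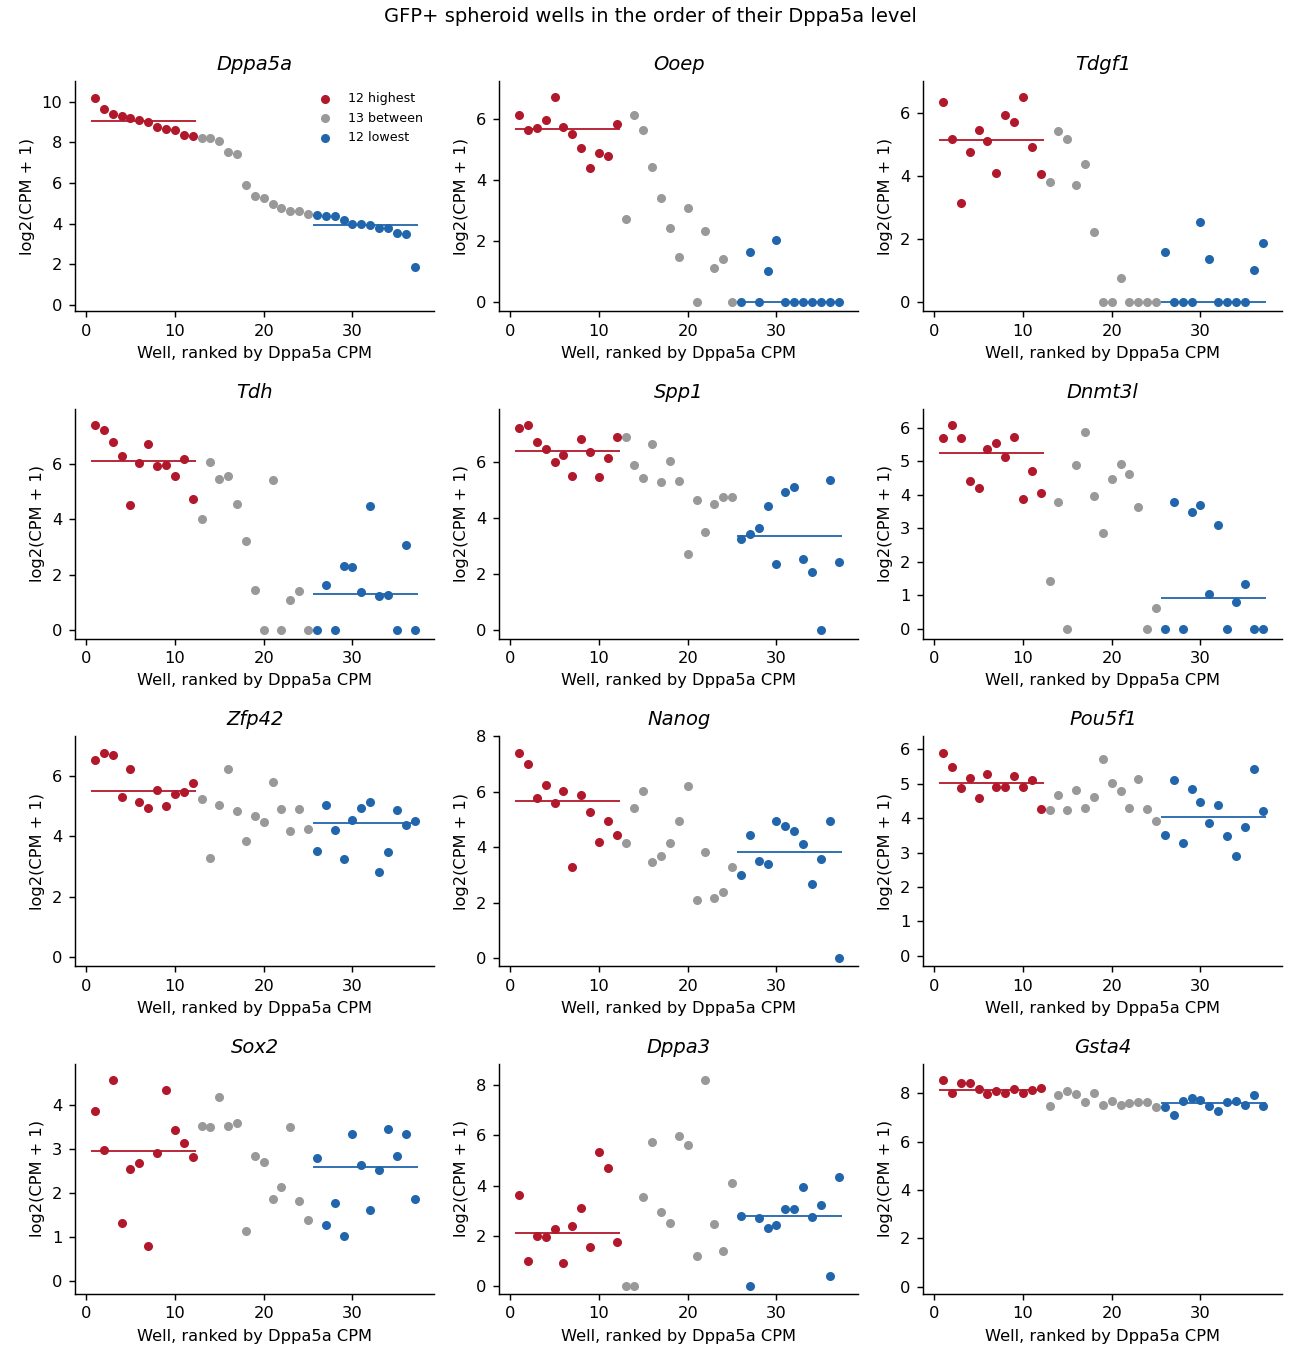
Level of 12 genes in the 37 GFP+ wells, with wells ordered by Dppa5a CPM on the x axis and log2(CPM + 1) on the y axis. Red, grey and blue points are the 12 highest, 13 middle and 12 lowest wells, and lines are the medians of the outer ranges. Ooep and Tdgf1 fall to 0 in most low wells, whereas Pou5f1 and Sox2 overlap between the ranges and Dppa3 peaks at 291 CPM in a middle well.

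Pou5f1 and Sox2 were not called. Pou5f1 was present in all 37 wells, with 18.1 to 59.1 CPM in high wells (median 31.4 CPM) and 6.47 to 42.1 CPM in low wells (median 15.6 CPM). Its log2 fold change of 0.85 ± 0.26 (SE) did not pass the test over all genes (edgeR adjusted p = 0.335), and low wells such as G8 with 42.1 CPM reached the upper part of the high range. Sox2 had 0.72 to 22.9 CPM in high wells (median 6.73 CPM) and 1.01 to 10.1 CPM in low wells (median 5.01 CPM), with a log2 fold change of 0.79 ± 0.43 (SE, edgeR adjusted p = 0.936). With plate row as a covariate the log2 fold change was 0.74 for Pou5f1 and 0.23 for Sox2 (edgeR adjusted p = 0.999 for both). Utf1, a chromatin factor of pluripotent cells, had a log2 fold change of 0.78 ± 0.25 (SE, edgeR adjusted p = 0.471), and of 0.39 with plate row as a covariate.

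Several other listed genes lay close to 0. The log2 fold changes were -0.01 ± 0.11 (SE) for Sall4, -0.17 ± 0.15 for Lin28a, -0.31 ± 0.29 for Klf4, -0.06 ± 0.25 for Klf5, -0.05 ± 0.35 for Tbx3 and 0.28 ± 0.26 for Tfcp2l1, and none was called. Sall4 and Lin28a are also expressed in progenitors after the exit from pluripotency, and Sall4 was well counted in these wells, at 143 to 280 CPM in high and 140 to 270 CPM in low wells. Over all 31 tested members, 22 had a positive log2 fold change, against 48.6% of all genes tested.

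The other 13 of the 44 listed genes were too rare for the filter and were read from a fit without it, in which 64 of 18558 genes were called higher (0.345%). Among these 13, 5 were called higher: Nr0b1 (Dax1), Tcl1, Esrrb, Fgf4 and Gdf3. Nr0b1, a nuclear receptor gene of naive cells, had 0.90 to 21.9 CPM in high wells (median 7.02 CPM) and no read in any low well. With 3 counts per library taken as the floor, its mean was at least 5.85-fold higher in high wells (edgeR adjusted p = 4.96e-06). Tcl1, a coactivator of the kinase Akt, had 1.57 to 91.8 CPM in high wells (median 15.3 CPM) and 0 to 5.75 CPM in low wells (median 0 CPM), with an edgeR adjusted p of 0.000101.

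Esrrb, an orphan nuclear receptor gene of the naive network, had 0 to 15.7 CPM in high wells (median 6.98 CPM), where 1 well lacked a read, and 0 to 2.36 CPM in low wells, where 8 wells lacked one (edgeR adjusted p = 0.00211). Fgf4, a growth factor gene that Pou5f1 and Sox2 activate, had a median of 8.97 CPM in high and 0 CPM in low wells (edgeR adjusted p = 0.0345). Gdf3, a ligand of the TGF-beta family, had medians of 9.96 and 0.34 CPM (edgeR adjusted p = 0.0848). Prdm14, Gbx2, Nr5a2, Foxd3, Dppa3, Klf2, Socs3 and Jam2 were not called.

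Dppa3 (Stella), a maternal factor also expressed in naive cells and germ cells, did not follow Dppa5a. High wells had 0.90 to 39.4 CPM (median 3.40 CPM) and low wells 0 to 19.2 CPM (median 5.87 CPM), with an edgeR adjusted p of 0.961. The highest value was 291 CPM in well F8, which had 26.5 CPM of Dppa5a and belonged to neither range. Over the 37 wells the rank correlation of Dppa3 with Dppa5a was -0.18, whereas it was 0.77 for Esrrb, 0.77 for Tdgf1, 0.68 for Zfp42, 0.60 for L1td1, 0.59 for Nanog, 0.56 for Pou5f1, 0.46 for Utf1 and 0.31 for Sox2. These correlations are descriptions over wells that include those used for the ranking.

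The 16 called genes that are on neither pluripotency list included Ooep and Gsta4 and several of smaller change. Mcf2, which encodes a guanine nucleotide exchange factor, had 9.59 to 72.6 CPM in high and 0 to 9.09 CPM in low wells, without overlap (log2 fold change 3.11 ± 0.55, SE, edgeR adjusted p = 0.00260, and 3.45 with adjusted p = 0.129 with plate row as a covariate). The log2 fold change was 1.44 ± 0.30 for Morc1, a factor that silences transposons in male germ cells, and 1.35 ± 0.28 for Hsf2bp, a factor of meiotic recombination. Platr14, a long noncoding RNA gene, had a log2 fold change of 0.94 ± 0.22. Zfp936 and Zfp534 belong to a large family of zinc finger genes with similar sequences, so their counts, with log2 fold changes of 2.07 ± 0.44 and 1.10 ± 0.27, are uncertain.

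The others were enzymes and carriers, most of them abundant and with small differences. Slc25a5, the ADP/ATP carrier of the mitochondrial inner membrane, had 694 to 1080 CPM in high and 546 to 843 CPM in low wells (log2 fold change 0.44 ± 0.08, SE, edgeR adjusted p = 0.00417). Aldoa, the glycolytic aldolase, had 1520 to 2005 CPM in high and 1099 to 1675 CPM in low wells (0.32 ± 0.07, SE, edgeR adjusted p = 0.0287). The log2 fold change was 1.07 ± 0.22 for Manba, a lysosomal mannosidase, 1.22 ± 0.27 for Ephx2, an epoxide hydrolase, 0.66 ± 0.15 for Cth, an enzyme of cysteine synthesis, 0.40 ± 0.09 for Farsb, a subunit of a tRNA synthetase, and 0.32 ± 0.08 for the importin Ipo5. With plate row as a covariate none of these was called, with log2 fold changes of 0.37 for Slc25a5 (edgeR adjusted p = 0.431), 0.22 for Aldoa (0.813), 1.24 for Manba (0.129) and 0.32 for Ipo5 (0.732). Mylpf, a myosin light chain of fast skeletal muscle, had 3.14 to 92.2 CPM in high wells (median 13.03 CPM) and 0 to 13.04 CPM in low wells (median 3.91 CPM). When each of the 24 wells was left out in turn, 21 of the 25 genes were called in every fit, and Zfp534 lost its call in 13 fits, Ipo5 in 10, Platr14 in 9 and Mylpf in 3.

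Tested genes of the cardiac and other lineages were not called between the ranges. None of the tested members of the lists for cardiac progenitor factors (8 tested), sarcomere and cardiomyocyte genes (6), second heart field (8), smooth muscle (7), primitive streak (3), definitive and visceral endoderm (7), endothelium (1) and neural cells (2) was called in either direction by edgeR or DESeq2, and none of these had an unadjusted p under 0.05. Many members of these lists were under the filter, which passed 6 of 25 sarcomere, 3 of 16 primitive streak, 1 of 15 endothelium and 2 of 16 neural genes. The fit without the filter tested 25, 16, 14 and 14 of these, and called no member of any of these lists. Of the 9 tested genes of surface ectoderm and epithelium, 0 were called and 1 was lower at an unadjusted p under 0.05. No blood gene passed the filter, and the summed level of the 14 blood genes was 1.64 to 23.6 CPM in high and 2.82 to 29.3 CPM in low wells, with 4 of them at 0. The summed level of the 24 endoderm genes was 2008 to 6892 CPM in high and 2343 to 4929 CPM in low wells.

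Hcn4, the gene that drives the reporter, had 2.41 to 17.2 CPM in high and 1.75 to 15.7 CPM in low wells. Markers of the cardiac label were uneven in these GFP+ wells. Nkx2-5 had reads in only 2 of the 37 wells and Tbx5 in 16, whereas Isl1, a progenitor factor, was present in all wells with 20.6 to 87.5 CPM in high and 38.8 to 114 CPM in low wells. Hand1 had medians of 28.1 CPM in high and 44.4 CPM in low wells, and its log2 fold change of -0.11 was not called. The contractile genes Myl7 and Tnnt2 had medians of 3.63 and 5.62 CPM in high and 1.75 and 3.12 CPM in low wells, with single wells up to 372 and 126 CPM.

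Lists of the cell cycle and of stress gave no call either. Of the 26 S-phase genes, 0 were called, but 6 were higher and 0 lower at an unadjusted p under 0.05, where 3.24% of all genes tested were higher, and the median log2 fold change was 0.18. Mcm5, a subunit of the replicative helicase, had 0.35 ± 0.13 (SE, edgeR adjusted p = 0.689). Of the 26 genes of G2 and M phase 0 were called and 0 had an unadjusted p under 0.05, and of the 20 p53 targets 0 were called while 1 was higher and 2 were lower at that level. DESeq2 called none of these genes. In the glycolysis list 1 of 17 genes was called by edgeR (Aldoa), and DESeq2 called 2 higher. In this list 5 genes were higher at an unadjusted p under 0.05, among them Pkm (log2 fold change 0.30 ± 0.08, edgeR adjusted p = 0.118) and Pfkp (1.18 ± 0.30, edgeR adjusted p = 0.129). The formative and primed epiblast list had 0 of 6 called by edgeR and 1 by DESeq2, and the germ cell list 0 of 12 by either tool, with 1 gene of each list higher at an unadjusted p under 0.05. For the 9 immediate early genes, 17 imprinted genes, 6 trophoblast genes, 6 targets of BMP, 8 targets of Wnt and 77 cytosolic ribosomal protein genes tested, neither tool made a call, and 1 ribosomal protein gene had an unadjusted p under 0.05.

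**Figure D4:**
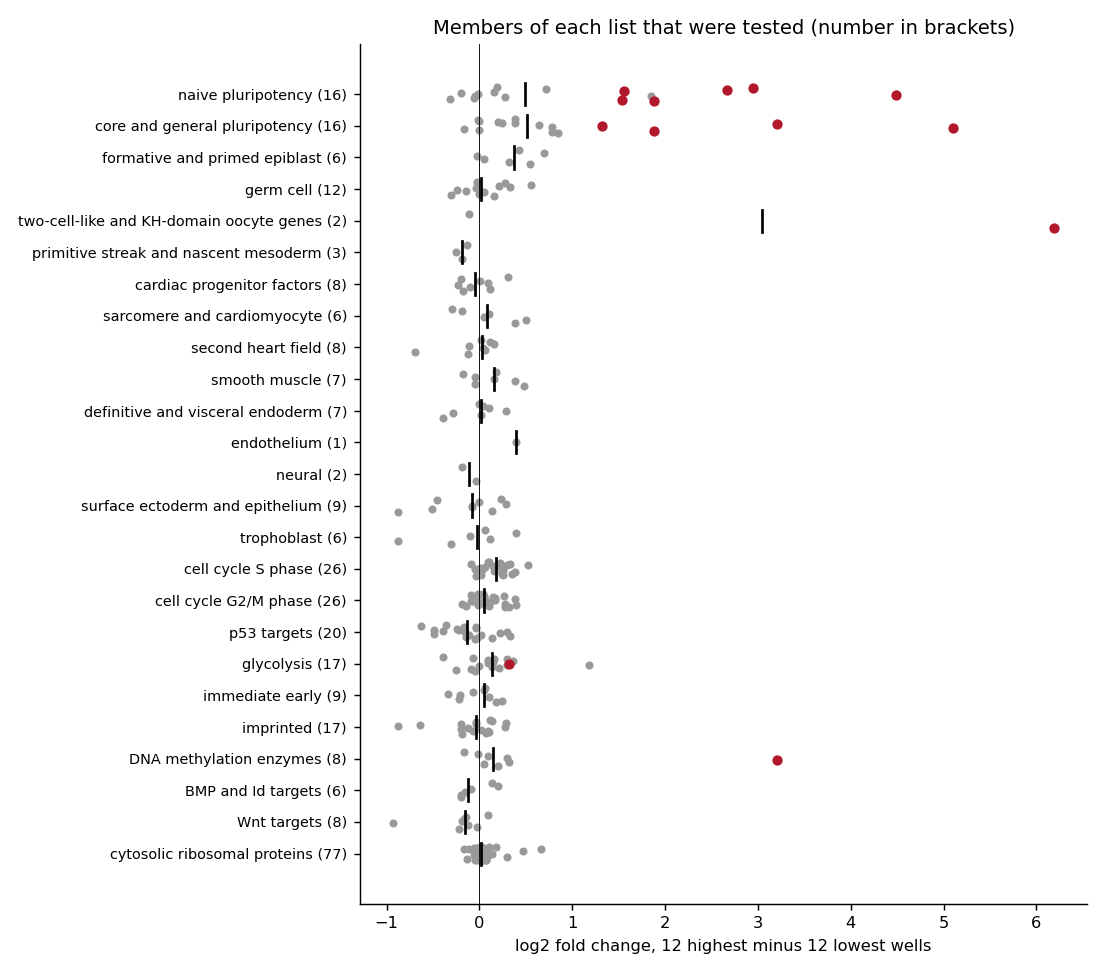
Log2 fold change between the 12 high and the 12 low wells (x axis) for every tested member of each gene list (y axis, number tested in brackets). Red points were called by edgeR, grey points were not, and black bars are list medians. Red points lie to the right of 0, with 6 in the naive and 4 in the core pluripotency list. The lists of glycolysis, DNA methylation, and two-cell-like and KH-domain oocyte genes hold 1 each. Genes on more than 1 list, such as Nanog and Dnmt3l, appear in each, and called genes on no list are not drawn.

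The 13 middle wells were not used in the comparison of the ranges and give the same measures in other samples. A fit of the log2 Dppa5a CPM as a continuous term over these 13 wells alone called 4 of 10507 genes rising (0.0381%) and none falling (447 genes at an unadjusted p under 0.05, edgeR only), and this fit was added after the data had been seen. The 4 were Tdgf1, Ooep, Tcl1 and Upp1, a uridine phosphorylase gene. Tdgf1 rose by a log2 of 2.02 ± 0.24 per doubling of Dppa5a (SE, 13 wells, edgeR adjusted p = 0.000136), Ooep by 1.22 ± 0.20 (edgeR adjusted p = 0.0189) and Tcl1 by 1.20 ± 0.23 (edgeR adjusted p = 0.0809). Of the 25 genes called between the ranges, 24 were tested here, 23 had a positive slope and 2 were called, while 48.7% of all genes had a positive slope.

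The middle wells fell on both sides of the step in Dppa5a between wells B10 and A10, 5 above and 8 below. Tdgf1 had 12.1 to 41.2 CPM in the 5 wells above and 0 to 3.57 CPM in the 8 below, and Tcl1 had 8.36 to 30.1 CPM above and 0 to 4.33 CPM below. Tdh had medians of 42.8 CPM above and 1.40 CPM below, although well B8 below the step reached 41.7 CPM. Pou5f1 did not share this order, with a median of 18.7 CPM in the wells above and 24.9 CPM in the wells below. Nanog overlapped, with 10.0 to 64.2 CPM above and 3.31 to 72.8 CPM below.

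Single wells showed that the set was not uniform. Counted over the 9 called pluripotency genes, the high wells exceeded the highest low well in 6 to 9 genes (median 8), with all 9 in wells A9 and D10 and 6 in wells A7 and H9. The 13 middle wells did so in 0 to 7 genes (median 3). These counts use genes selected on the same wells and are a description.

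The same ranking was applied to the RFP+ spheroid wells, which the choice of GFP+ wells had not used. Neighbouring RFP+ wells in 7 plate rows (columns 3 and 4) held almost the same library, with a correlation of log2 CPM between 0.972 and 0.992, and were summed, which left 39 libraries; no pair of GFP+ wells reached 0.97. Only 3 of the 39 had more than 100 CPM of Dppa5a, and 21 of the other 36 had none, so the 12 highest against the 12 lowest RFP+ libraries is a comparison over a lower range. The 12 lowest were taken by well name from the libraries tied without a Dppa5a read, and all of them lay in plate rows E to H. Most of the 12 highest lay in rows A and C, and plate row was not part of this fit. The comparison called 1 of 9139 genes higher (0.0109%), which was Pdhb, and 0 of the 18 pluripotency genes tested (686 genes of all kinds had an unadjusted p under 0.05, edgeR only). Of the 25 genes called between the GFP+ ranges, only 11 passed the low-count filter here. Among these 11, 8 had a positive log2 fold change and 0 were called. Ooep, Tdh, Spp1, Dnmt3l, Dppa2, Zfp42 and L1td1 were not tested in this fit, so it cannot decide on them. In the 3 libraries with much Dppa5a, from wells C6, G2 and A1, Ooep stood at 34.9, 26.8 and 30.5 CPM, against at most 3.05 CPM in the other 36. Tdh was 55.3, 21.05 and 43.1 CPM in them and at most 9.58 CPM elsewhere, and Zfp42 39.8, 17.2 and 21.9 CPM and at most 12.0 CPM elsewhere. Nanog was 108, 64.7 and 5.97 CPM in them and up to 45.4 CPM elsewhere, Pou5f1 36.9, 27.6 and 11.3 CPM and up to 31.7 CPM elsewhere, so well A1 lay inside the range of the other libraries for both. Dnmt3l was 1.94, 16.8 and 16.6 CPM and at most 5.65 CPM elsewhere, and Spp1 23.3, 16.8 and 16.6 CPM and at most 19.4 CPM elsewhere. Tdgf1 did not set the 3 libraries apart, with 2.91, 42.5 and 19.9 CPM in the 3 libraries and up to 154 CPM in the others. Gsta4 was 402, 385 and 520 CPM in them and 281 to 523 CPM in the rest.

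A single fit over the 24 GFP+ wells and 24 RFP+ libraries tested whether the contrast differed between the populations. It called 2 of 10559 genes (0.0189%), Tdgf1 and Gsta4. For the other called genes, Zfp42 and Nanog included, a difference between the populations was not detected, and the unequal range of Dppa5a in both rankings was not tested as a source of this. Plate row was not part of this fit either, and its part in the calls was not tested.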

How the data were processed

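The authors reverse transcribed the polyadenylated RNA of 10 sorted cells per well, amplified it by PCR and sequenced 1 library per well. According to the submitters' processing notes, reads were trimmed with Trimmomatic 0.36 (minimum quality 35, minimum length 36), mapped to mm10 with HISAT2 2.0.4 and counted per gene with featureCounts 1.5.2. The deposited values are these whole read counts for 24514 gene symbols, without normalization, in 93 libraries. Whether counting used strand is not given in the sources used here, so overlapping genes may share counts. The libraries carry no molecular identifiers.

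CPM was computed as count over library total. GFP+ spheroid wells were ranked by Dppa5a CPM without well C9, and the 12 highest were tested against the 12 lowest in R 4.3.3 with edgeR 4.0.16 (TMM, filterByExpr with minimum count 10, minimum total 15 and minimum proportion 0.7, quasi-likelihood F-test, Benjamini-Hochberg adjusted p under 0.1), with Dppa5a left out of the genes tested. DESeq2 1.42.0 was an alternative. Without the low-count filter, genes needed a read in at least 2 wells. The scripts were tested on simulated data. Plate row, plate column, depth, other range sizes and scalings, and each well left out in turn were alternatives. The wells, gene lists and tests were chosen with earlier results of these data known. Named genes are Pou5f1, Sox2, Nanog, Zfp42, Dppa3, Esrrb, Tdgf1, Utf1 and L1td1, every other pluripotency gene called, the 10 called genes of smallest p in each direction with at least 10 CPM in the higher range, up to 3 called genes of each other list and the genes most like Dppa5a by Spearman rank correlation. The remaining called genes, neighbours on chromosome 9, cardiac markers and list members near a call were added after their values had been seen. Upstream sequences and motif shares came from RefSeq (GRCm38.p6, the assembly of mm10) with Python 3.11.15 and pandas 2.3.3, and figures were drawn with matplotlib 3.10.9.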

Additional observations from a re-analysis of the deposited data

Results flagged for a closer look

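The contrast of high against low Dppa5a differed between GFP+ and RFP+ spheroid cells for Tdgf1 and Gsta4, by the edgeR interaction test over 24 GFP+ wells and 24 RFP+ libraries. For Tdgf1 the difference of the log2 fold changes was 5.05 ± 1.01 (SE, edgeR adjusted p = 0.0321), with 5.10 in GFP+ and 0.04 in RFP+ cells. For Gsta4 it was 0.68 ± 0.11 (SE, edgeR adjusted p = 0.00174), with 0.63 in GFP+ and -0.07 in RFP+ cells. The 12 highest RFP+ libraries reached down to 1.52 CPM of Dppa5a, where the GFP+ range ended at 318 CPM, and the part of this unequal range in the difference was not tested. The 12 lowest RFP+ libraries were taken by well name from those tied without a Dppa5a read, and all lay in plate rows E to H. Plate row was not part of this fit, and its part in the difference was not tested.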

How the results depend on the processing

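The 25 calls between the ranges, all of them higher, varied in number with the setting. Without the low-count filter 71 genes were called, 64 higher and 7 lower, and with DESeq2 55, of which 49 were higher and 6 lower. With log2 Dppa5a as a continuous term over 37 wells 67 genes were called (61 rising, 6 falling), with 18 wells a side 41 (39 and 2), and with 17 wells above against 20 below the widest step, added after the data had been seen, 41 (38 and 3). Plate column as a covariate left 16 genes and plate row 9, all higher, and the 13 middle wells alone, also added later, gave 4. Genes called lower numbered 2 with 8 wells a side and 1 each with well C9 kept, with log2 total count as a covariate and with genes detected as a covariate. Leaving out each well in turn gave 21 to 34 calls, with 0 to 2 lower. Pluripotency genes called numbered 14 without the filter, 15 with the continuous term, 12 with 18 wells a side and with the split at the widest step, 10 with DESeq2, 8 with well C9 kept, 7 with plate column and 6 with plate row as a covariate, 2 in the 13 middle wells and 9 to 12 when a well was left out. Of the 25 genes, the 23 to 25 that were tested kept a positive log2 fold change under the other fits to both ends of the ranking (not counted with a well left out), and the slope of Pou5f1 in the 13 middle wells was -0.087. With all 46 RFP+ wells as separate libraries 15 genes were called there instead of 1. No paired analysis was possible because the wells of the ranges carry no shared replicate number.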
